A study of Mus musculus with 2 samples.

Results

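The integrated stress response genes described here are Atf4, Ddit3, Trib3, Asns, Chac1, Sesn2, Gdf15, Phgdh, Psat1 and Hspa5, chosen by name among the 32285 genes of the count matrices. All 10 were detected, among 23582 genes with at least 1 unique molecular identifier (UMI, a tag that counts 1 captured transcript). Their UMIs were counted in single cells of Lewis lung carcinoma (LLC) tumors, a mouse lung cancer line grown under the skin of C57BL/6 mice. The study deleted Gucy1b1, which encodes the β1 subunit of the nitric oxide receptor soluble guanylate cyclase (sGC), and compared tumors of both genotypes.

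The sGC Ctr mice were Gucy1b1 flox/flox without Cre, and the sGC ∆PC mice carried Cspg4-CreER T2 together with Gucy1b1 flox/flox, so that the deletion could occur in cells in which the Cspg4 promoter drives the Cre, among them pericytes. All mice were given tamoxifen (5 doses) when 4 weeks old and LLC cells when 8 weeks old, and the tumors were taken 2 weeks later. Each group was a single library made from 3 pooled tumors, so the genotype cannot be told apart from the library, no test between genotypes was possible, and all intervals below cover counting error only. The deletion was in the host and not in the LLC cells.

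The sGC Ctr matrix held 15007 barcodes and 487859656 UMIs, and the sGC ∆PC matrix 25631 barcodes and 436352742 UMIs. After filtering, 11673 and 18570 cells were used, with a median of 37612 and 10948 UMIs, and 131 barcodes occurred in both matrices. Cells were assigned to 9 classes by marker genes, none of which is one of the 10 genes. This gave 7222 and 11216 cancer cells (Krt18, Krt8, Rhox5, Hmga2), 1902 and 1669 macrophages, and 8 to 71 cells in each other class and library. Mixed markers set aside 11.4% and 23.2% of the cells. Gucy1b1 in the 28 pericytes of sGC Ctr stood at 140 CPM (UMIs per 1000000 UMIs of the class, 95% Poisson interval 104 to 186) and in the 15 pericytes of sGC ∆PC at 56.6 CPM (28.2 to 101), lower in the direction of the label.

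The integrated stress response starts when kinases that sense amino acid shortage, unfolded protein in the endoplasmic reticulum, viral RNA or heme deficiency phosphorylate the initiation factor eIF2α. General translation falls while the transcription factor ATF4 is translated more efficiently from its existing mRNA, so that the Atf4 transcript measured here is not a readout of ATF4 activity. ATF4 then induces Ddit3, which encodes the transcription factor CHOP, the pseudokinase gene Trib3, the asparagine synthetase gene Asns, Chac1 for glutathione breakdown, Sesn2, an inhibitor of growth signalling through mTORC1, and the secreted factor gene Gdf15. Phgdh and Psat1 catalyse consecutive steps of serine synthesis, and Hspa5 encodes BiP, the main chaperone of the endoplasmic reticulum and a target of the related unfolded protein response.

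On GENCODE M21 (GRCm38, the mm10 build of the files), Hspa5, Chac1 and Trib3 lie on chromosome 2, at 34771970 to 34777547, 119351229 to 119354381 and 152337422 to 152344032. Phgdh lies on chromosome 3 at 98313170 to 98339990, Sesn2 on chromosome 4 at 132492032 to 132510501 and Asns on chromosome 6 at 7675169 to 7693254. Gdf15 lies on chromosome 8 at 70629393 to 70632456, Ddit3 on chromosome 10 at 127290774 to 127296288, Atf4 on chromosome 15 at 80255184 to 80257541 and Psat1 on chromosome 19 at 15904678 to 15947337. A second identifier with the symbol Ddit3 held 0 UMIs and was not used.

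The promoters of 3 genes are shown because they hold the letters of an element known from this pathway. Each line gives the 250 bases before the RefSeq start site (GRCm38.p6), 5′ to 3′ on the strand of the gene. The capitals mark TGATGNAA, the core of the C/EBP-ATF response element bound by ATF4, in Asns and (as its reverse complement) in Chac1, and the endoplasmic reticulum stress element, CCAAT and CCACG with 9 bases between them, in Hspa5.
Asns: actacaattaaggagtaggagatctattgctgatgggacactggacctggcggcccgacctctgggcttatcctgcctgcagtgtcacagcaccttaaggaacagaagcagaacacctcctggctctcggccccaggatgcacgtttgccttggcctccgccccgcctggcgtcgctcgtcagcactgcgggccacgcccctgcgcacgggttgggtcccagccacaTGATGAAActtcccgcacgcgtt
Chac1: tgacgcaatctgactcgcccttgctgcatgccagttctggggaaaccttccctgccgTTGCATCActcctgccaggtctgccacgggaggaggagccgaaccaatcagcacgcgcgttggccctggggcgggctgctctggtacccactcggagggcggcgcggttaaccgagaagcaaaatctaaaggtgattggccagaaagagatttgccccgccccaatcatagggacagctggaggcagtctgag
Hspa5: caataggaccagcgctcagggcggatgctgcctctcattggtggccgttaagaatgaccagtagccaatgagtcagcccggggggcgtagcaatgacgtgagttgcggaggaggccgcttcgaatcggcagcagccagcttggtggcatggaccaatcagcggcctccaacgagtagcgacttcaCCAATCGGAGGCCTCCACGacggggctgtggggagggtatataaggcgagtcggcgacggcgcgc
These windows are chr6:7693210-7693459 on the minus strand, chr2:119350992-119351241 on the plus strand and chr2:34771840-34772089 on the plus strand. The first motif ran from position -23 to -16 in Asns and from -193 to -186 in Chac1, counted back from the start site, and the second from -65 to -47 in Hspa5. Both strands were searched, and no match of one motif overlapped the other. Of 32851 promoters of the same length, 3.45% held TGATGNAA and 0.113% held the longer element. The other 7 genes held neither in this window, over 9 promoters.

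Across cell classes, the 10 genes did not share one pattern: the metabolic genes Asns, Phgdh and Psat1 were highest in cancer cells, while Ddit3, Sesn2 and Atf4 were highest in granulocytes and Gdf15 in macrophages. Atf4 stood at 138 CPM in cancer cells and 135 CPM in macrophages of sGC Ctr, and at 166 and 168 CPM in sGC ∆PC. The difference between these classes lay within counting error in both libraries. In granulocytes Atf4 reached 337 CPM (256 to 437, 57 UMIs in 66 cells) in sGC Ctr and 368 CPM (291 to 459, 79 UMIs in 71 cells) in sGC ∆PC. In pericytes it was 97.4 and 92.6 CPM, the lowest level of any class, although the intervals of most small classes overlapped.

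Ddit3 differed widely between classes. It stood at 12.0 and 12.7 CPM in cancer cells of sGC Ctr and sGC ∆PC, at 23.7 and 24.2 CPM in macrophages, at 35.1 and 31.8 CPM in fibroblasts and at 80.2 and 77.2 CPM in pericytes. In granulocytes it was at 337 CPM (256 to 437) and 214 CPM (157 to 286). Granulocytes were thus 28.2-fold above cancer cells in sGC Ctr and 16.8-fold in sGC ∆PC. Endothelial cells, at 16.9 and 11.9 CPM, lay beside the cancer cells within counting error. After every cell was thinned to 2000 UMIs, a Ddit3 UMI was found in 42.4% and 35.2% of granulocytes but in 2.56% and 2.93% of cancer cells and 4.63% and 4.19% of macrophages.

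Sesn2 followed Ddit3 in granulocytes, at 124 CPM (76.9 to 190) and 116 CPM (75.4 to 172), against 11.7 and 12.1 CPM in cancer cells, which is 10.6-fold and 9.61-fold higher. In macrophages it stood at 9.67 and 12.0 CPM. Granulocytes had the fewest UMIs per cell of all classes, with a median of 2368 and 2743, and their cancer marker sum was 0.990% and 1.63% of that in cancer cells. The part of cell depth in these levels was not tested.

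Trib3 and Chac1 were scarce, and both were highest in endothelial cells among the classes with more than 1 UMI. Trib3 stood at 16.2 CPM (10.3 to 24.3) and 24.7 CPM (16.0 to 36.5) in endothelial cells, from 23 and 25 UMIs, against 4.80 and 5.27 CPM in cancer cells and 3.22 and 3.52 CPM in macrophages. This was 3.38-fold and 4.69-fold above the cancer cells. Chac1 gave 0.384 and 0.386 CPM in cancer cells and 3 and 6 UMIs in all endothelial cells, which is 2.11 CPM (0.436 to 6.17) and 5.93 CPM (2.18 to 12.9). Neither gene had a UMI in pericytes of either library, which allows up to 8.59 and 15.4 CPM.

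Gdf15 had its highest level, as a share of the UMIs of a class, in macrophages. It stood at 12.3 CPM (10.9 to 13.7) and 11.3 CPM (9.85 to 12.9) in macrophages and at 1.08 and 1.29 CPM in cancer cells, a log2 ratio of cancer cells over macrophages of -3.50 and -3.13. Every other class held at most 3 Gdf15 UMIs. Within macrophages the transcripts were uneven: with each cell thinned to 10000 UMIs, the variance of Gdf15 was 4.21 and 3.78 times its mean, against 1.43 and 1.51 times for Ddit3 and 4.30 and 3.52 times for the abundant Hspa5, and 4.41% and 4.44% of macrophages had a Gdf15 UMI.

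The biosynthetic genes were highest in cancer cells, by margins that differed between genes and classes. Asns in fibroblasts was at 46.2% and 69.6% of the cancer cell level, and in endothelial cells at 44.5% and 62.4%. Asns was at 56.9 and 63.4 CPM in cancer cells and 8.69 and 10.2 CPM in macrophages, and Phgdh at 149 and 162 CPM against 9.84 and 15.2 CPM, ratios of 15.1 and 10.7. Psat1 was closer, at 46.6 and 55.1 CPM against 22.8 and 22.3 CPM. Macrophages carried the cancer markers at 5.60% and 6.09% of the cancer cell level, and Phgdh at 6.61% and 9.38%, Asns at 15.3% and 16.0% and Psat1 at 49.0% and 40.4% of that level. All 3 genes thus stood above the share of the markers. The limits on those markers also chose the macrophages, and the part of cancer cell RNA in these levels was not tested.

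T cells came closest to the cancer cells in Phgdh, with 116 CPM (63.5 to 195) and 151 CPM (82.8 to 254), from 14 UMIs in each library. Their cancer marker sum was 4.62% and 4.41% of that in cancer cells. The same T cells had 1 Psat1 UMI in each library. Among the classes with a Phgdh UMI, endothelial cells were lowest, at 3.52 CPM (1.14 to 8.22) and 8.90 CPM (4.07 to 16.9).

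Hspa5 was the most abundant of the 10 genes in every class, and highest in fibroblasts and granulocytes. It stood at 410 and 427 CPM in cancer cells, 669 and 619 CPM in macrophages, 729 and 779 CPM in fibroblasts and 746 and 750 CPM in granulocytes, and the intervals of the last 2 classes overlapped. In sGC Ctr the interval of the 66 granulocytes also held the macrophage level, so their rank above macrophages there lay within counting error. T cells were lowest in sGC Ctr (373 CPM, 272 to 500) and dendritic cells in sGC ∆PC (297 CPM, 228 to 380). Hspa5 gave 49.4% and 47.2% of all UMIs of the 10 genes in cancer cells, and 74.8% of those in macrophages of sGC Ctr.

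**Figure D1:**
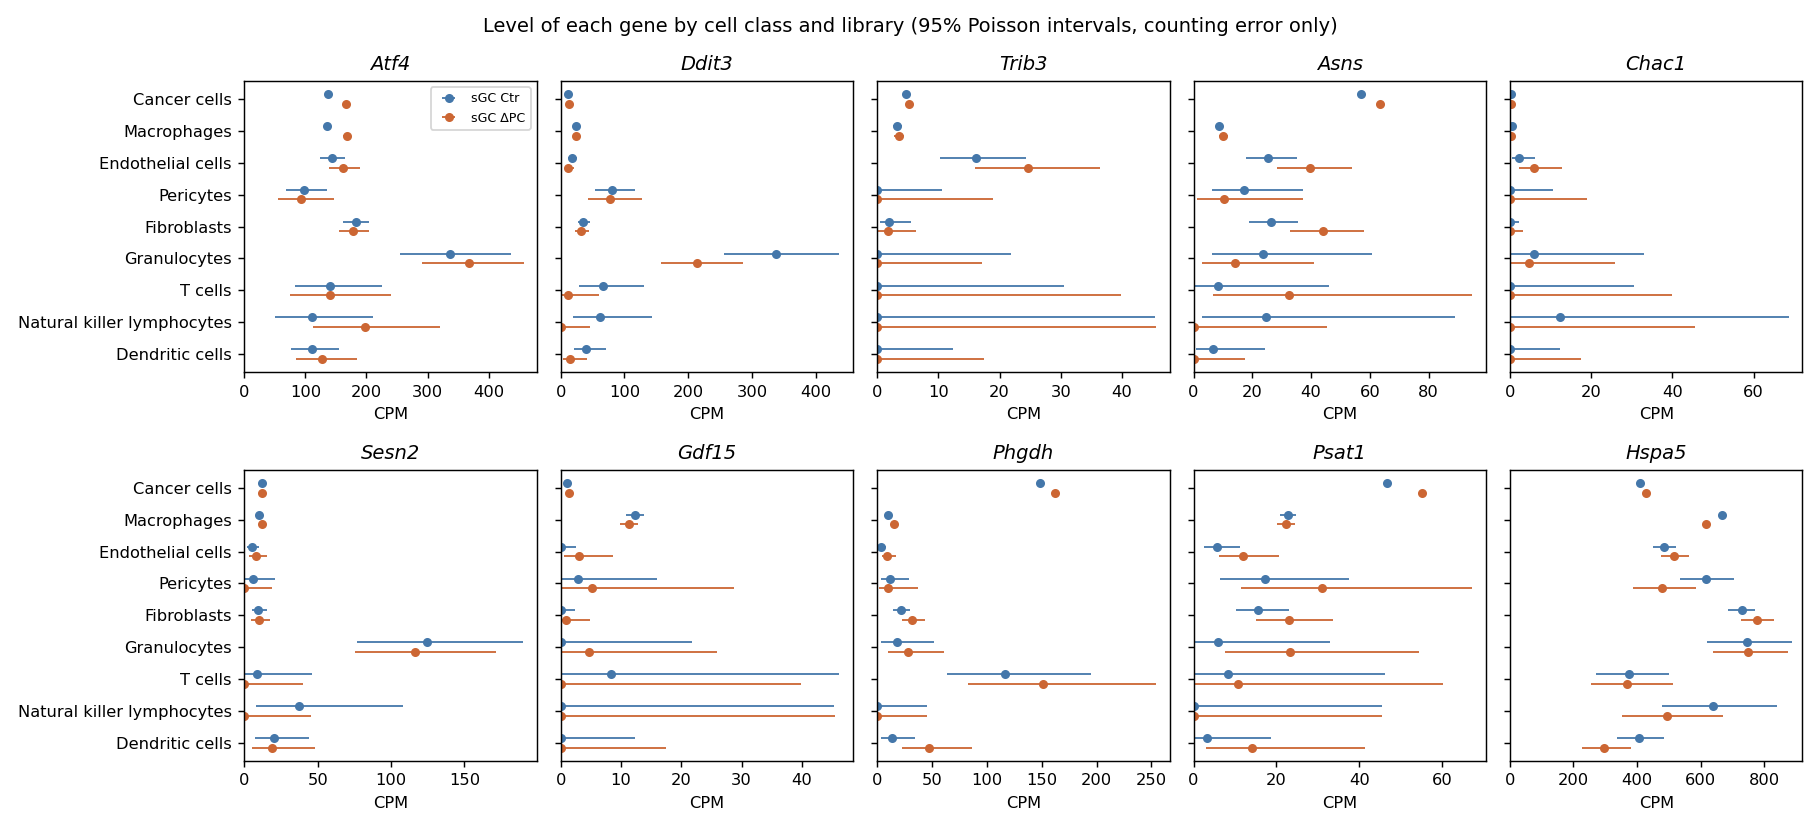
Level of each gene (x axis, CPM) in 9 cell classes (y axis) for sGC Ctr (blue) and sGC ∆PC (orange), with 95% Poisson intervals that cover counting error only. Granulocytes stand out for Ddit3 (337 and 214 CPM) and Sesn2 (124 and 116 CPM), macrophages for Gdf15 (12.3 and 11.3 CPM), and cancer cells and T cells for Phgdh.

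Summed over the 10 genes, cancer cells and macrophages were close. The sum was 829 CPM in cancer cells and 894 CPM in macrophages of sGC Ctr (log2 ratio -0.11, 95% interval -0.13 to -0.09) and 905 and 885 CPM in sGC ∆PC (0.03, 0.01 to 0.05). The sign of this small difference depended on the scaling: without mitochondrial, ribosomal protein and hemoglobin genes, which held 42.4% of UMIs in cancer cells but 21.5% in macrophages of sGC Ctr, cancer cells were higher by 0.34 and 0.45, as this scaling moved every ratio by 0.44 and 0.41. Atf4, Sesn2 and Chac1 also changed side with the scaling in 1 of the libraries, whereas Ddit3, Gdf15 and Hspa5 stayed lower and Trib3, Asns, Phgdh and Psat1 stayed higher in cancer cells.

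Within the cancer cells, hypoxia was the state in which most of the pathway stood highest. The cancer cells of each library were ranked by the summed level of 10 hypoxia genes (Car9, Egln3, Ndrg1, Pdk1, Bnip3, Ankrd37, Slc2a1, P4ha1, Ldha, Pgk1), none of them among the genes described here, and split into quintiles (groups of equal cell number), and the top was set against the lowest. Of the 10 genes, 9 were higher in the top quintile of sGC Ctr, with a median log2 ratio of 0.85 against -0.22 over all 12745 genes tested, and 4 were higher by 2-fold or more (Trib3, Chac1, Asns, Psat1), where 2.15% of all genes were. In sGC ∆PC all 9 that could be tested were higher, with a median of 0.53 against -0.17 over 12781 genes. There 3 (Trib3, Gdf15, Ddit3) reached 2-fold, where 1.87% of all genes did. Chac1 was below the minimum of 50 UMIs in sGC ∆PC.

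Trib3 had the largest difference of the 10 genes in sGC ∆PC and the second largest in sGC Ctr, after the scarce Chac1 (0.114 to 0.845 CPM, log2 2.89, 1.77 to 4.26). Its level over the quintiles, from the least to the most hypoxic, was 2.20, 3.05, 4.24, 5.07 and 8.75 CPM in sGC Ctr and 3.22, 4.86, 4.89, 5.61 and 8.05 CPM in sGC ∆PC, ending 3.97-fold and 2.50-fold above the first. The level was highest in the top quintile of both libraries, and in sGC ∆PC it was nearly level over the second and the third quintile. Trib3 lay at percentile 99.4 and 99.0 of all genes in this comparison.

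Atf4 was higher at each step as well, going from 109 through 119, 131 and 139 to 183 CPM in sGC Ctr (log2 0.75, 0.71 to 0.79) and from 145 through 159, 162 and 167 to 204 CPM in sGC ∆PC (0.49, 0.45 to 0.53). Ddit3 did not climb evenly. In sGC Ctr it went from 13.2 down to 8.70 and then to 9.31, 10.2 and 19.1 CPM, and in sGC ∆PC from 9.94 through 9.86, 11.3 and 13.3 to 19.9 CPM. In both libraries the top quintile was the one that stood out.

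Among the targets further down the pathway, Asns was at 33.5 CPM in the lowest and 69.3 CPM in the top quintile of sGC Ctr and at 45.1 and 75.1 CPM in sGC ∆PC. Psat1 went from 25.5 to 53.7 CPM and from 43.6 to 62.8 CPM, and Sesn2 from 10.7 to 14.7 CPM and from 10.7 to 14.8 CPM. Gdf15 was low throughout, at 0.587 and 1.15 CPM in sGC Ctr, with its highest level of 1.82 CPM in the middle group, and at 0.817 and 1.70 CPM in sGC ∆PC. The top quintile was higher for all 4 genes in both libraries.

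Phgdh and Hspa5 departed from this. Phgdh was at 99.9 and 146 CPM in the lowest and top quintile of sGC Ctr but at 140 and 148 CPM in sGC ∆PC, where the difference was 0.08 on the log2 scale. In sGC ∆PC the 3 middle groups were above both of these quintiles, at 170 to 175 CPM. In sGC Ctr the middle groups were at 143 to 169 CPM, all above the lowest quintile but not all above the top one. Hspa5, the chaperone, was at 442 and 420 CPM (log2 -0.08) and at 436 and 449 CPM (0.04). Its level was nearly flat across hypoxia in both libraries. The summed level of the 10 genes differed by 0.32 (0.30 to 0.33) and 0.24 (0.22 to 0.26) on the log2 scale. Median depth was 39500 UMIs in the lowest and 51171 in the top quintile of sGC Ctr and 13976.5 and 13873 in sGC ∆PC, and the mitochondrial share was 4.94% and 4.28%, and 5.57% and 4.41%. The macrophage markers stood at 68.0 CPM in the lowest and 73.7 CPM in the top quintile of sGC Ctr. In sGC ∆PC they stood at 99.3 and 158 CPM. Gdf15 and Ddit3, past 2-fold only in sGC ∆PC, had higher levels in macrophages than in cancer cells. The part of depth, mitochondrial share and macrophage RNA in the differences was not tested.

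**Figure D2:**
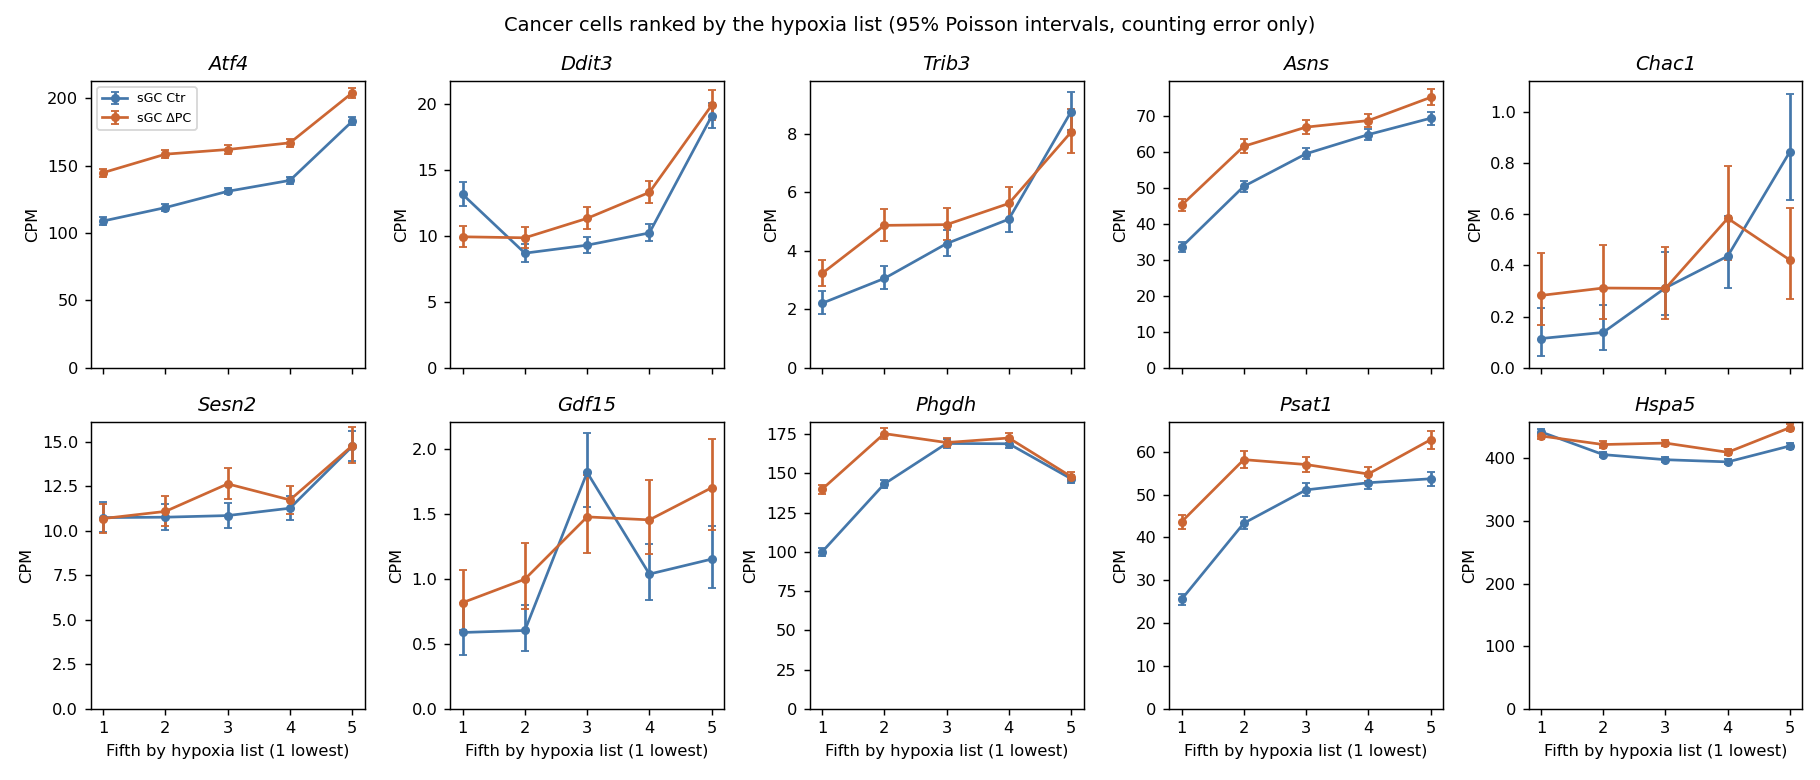
Level of each gene (y axis, CPM, with 95% Poisson intervals for counting error) in cancer cells split into quintiles by the hypoxia list (x axis, 1 the lowest), for sGC Ctr (blue) and sGC ∆PC (orange). Atf4, Trib3 and Asns climb over the quintiles in both libraries, Ddit3 is highest in the last, and Hspa5 stays between 394 and 449 CPM.

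Other genes of the pathway were followed as lists. Of 20 genes of amino acid transport and synthesis, 19 were tested and 17 were higher in the hypoxic top quintile of sGC Ctr (median log2 0.59, 5 by 2-fold or more), and 14 in sGC ∆PC (0.34, 2 by 2-fold or more). Over all genes, 27.4% and 28.5% were higher, and 2.15% and 1.87% by 2-fold or more. Slc7a11, the cystine transporter, was at 1.14 and 3.11 CPM in the lowest and top quintile of sGC Ctr and at 3.08 and 6.00 CPM in sGC ∆PC. Of 20 aminoacyl-tRNA synthetases, 19 and 14 were higher, by less than 2-fold, with medians of 0.20 and 0.12. The 17 kinases and regulators split into 12 higher and 5 lower in sGC Ctr and 9 and 8 in sGC ∆PC, with medians of 0.10 and 0.00.

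The chaperones and unfolded protein response genes stood near the background. Of these, 3 of 20 were higher in the top quintile of each library, where 27.4% and 28.5% of all genes were, with medians of -0.24 and -0.14 against -0.22 and -0.17 over all genes. Xbp1, a transcription factor of the unfolded protein response, was at 63.0 and 42.4 CPM in sGC Ctr and 49.7 and 41.7 CPM in sGC ∆PC. Among 8 tested stress targets, Hmox1, heme oxygenase, was at 8.51 and 37.3 CPM and at 9.42 and 57.4 CPM, and Txnip, a thioredoxin inhibitor, at 83.2 and 22.2 CPM and at 47.3 and 21.1 CPM. Atf3, a transcription factor acting beside Ddit3 and chosen here after its values were seen, was at 8.07 and 30.5 CPM and at 13.3 and 29.8 CPM.

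The cell cycle separated the serine synthesis genes from Ddit3. In the top against the lowest quintile by 12 G1/S genes, Psat1 was at 70.4 against 20.6 CPM in sGC Ctr and 76.9 against 29.3 CPM in sGC ∆PC (log2 1.77 and 1.39), and Phgdh at 209 against 80.7 CPM and 218 against 92.9 CPM (1.37 and 1.23). Ddit3 was lower in the G1/S-high cells, at 8.20 against 19.0 CPM and 10.7 against 17.3 CPM (-1.21 and -0.70). Past 2-fold higher were Phgdh and Psat1 in both libraries, where 6.88% and 5.45% of all genes were. Trib3 showed no such difference, at -0.14 and 0.17 with intervals that include 0, and Atf4 differed by 0.09 and 0.16.

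Ranking by 10 G2/M genes gave a like picture. Psat1 differed by 1.74 and 1.31 and Phgdh by 0.97 and 0.81 on the log2 scale, while Ddit3 was lower by -0.70 and -0.57. Asns was higher with both cycle lists, by 0.73 and 0.59 for G1/S and by 0.60 and 0.42 for G2/M. Cells of the top G1/S quintile were deeper in sGC Ctr, with a median of 63457 against 38098 UMIs, and close in sGC ∆PC, with 13497 against 12655. By the G2/M list the medians were 71489.5 against 40270 UMIs in sGC Ctr and 21646 against 15682.5 in sGC ∆PC. In the lowest G2/M quintile 42.8% and 59.0% of cells held no UMI of the list, and in the lowest G1/S quintile 6.09% and 25.2%. The part of depth here was not tested.

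Where the cancer cells were high in the state lists named for Igfbp6, Clu and Scara5 or for Prg4, Aspn and Ptn, the biosynthetic genes were lower. With the first list Psat1 differed by -1.17 and -0.89, Phgdh by -0.84 and -0.55 and Asns by -0.72 and -0.56. With the second the values were -0.78 and -0.50 for Psat1, -0.69 and -0.30 for Phgdh and -0.66 and -0.42 for Asns. Hspa5 stayed within 0.04 of 0 with both lists in both libraries. In cells high in the Kcnq1ot1 list the median gene itself was higher by 0.32 and 0.29, and the 10 genes had medians of -0.12 and -0.18. Many cells of the lowest quintiles held no UMI of the list. For the Prg4 list this was 100% in both libraries. The second quintile of sGC ∆PC was at 100% too, so ties were split at random. For Kcnq1ot1 it was 38.5% in sGC Ctr and 100% in sGC ∆PC, where median depth was 8371 UMIs against 42299 in the top. For the Igfbp6 list it was 11.1% and 51.1%. The part of depth in these differences was not tested.

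**Figure D3:**
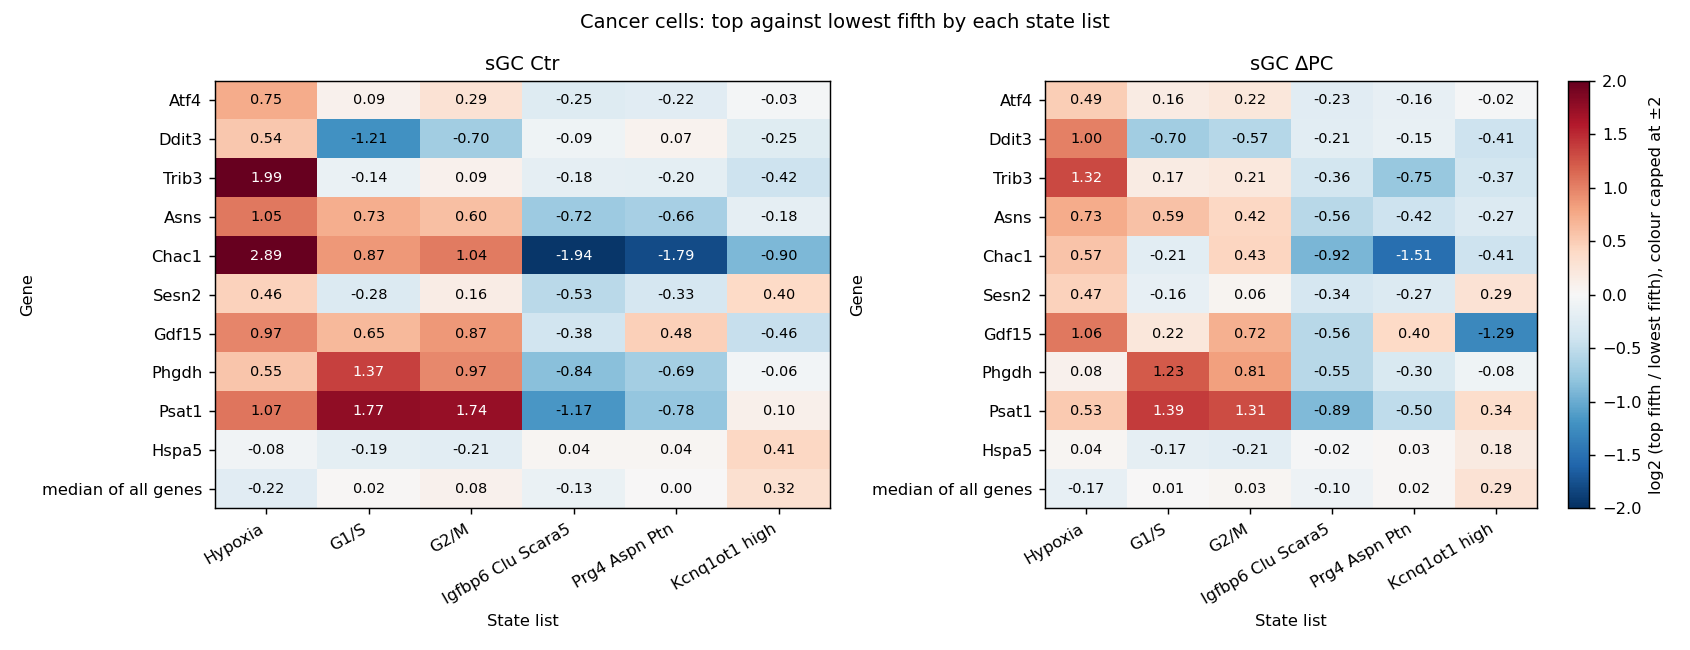
Log2 ratio of the top over the lowest quintile of cancer cells by 6 state lists (x axis), for each gene and for the median of all genes (y axis), in sGC Ctr (left) and sGC ∆PC (right). Red is higher and blue lower in the top quintile, with the colour capped at 2. Trib3 is highest with hypoxia (1.99 and 1.32), Psat1 and Phgdh with the cycle lists, and Hspa5 stays between -0.21 and 0.41.

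Clustering the cancer cells of each library without the 10 genes, into 14 and 15 clusters, placed the highest sum in a hypoxic cluster. The cluster with the highest hypoxia list, with Mt2, Mt1, Adm and Ndrg1 among its 10 leading genes, had the highest sum of the 10 genes in each library, 1013 CPM in 529 cells of sGC Ctr and 1112 CPM in 470 cells of sGC ∆PC. It had Atf4 at 247 and 274 CPM, Ddit3 at 31.9 and 34.9 CPM and Trib3 at 12.9 and 10.1 CPM. Clusters of few, shallow cells with a low hypoxia list matched or passed it for Atf4: 67 sGC Ctr cells (median 2898 UMIs) had 247 CPM, and 71 sGC ∆PC cells (median 3427 UMIs) had 303 CPM, with Ddit3 at 22.8 and 41.3 CPM. Phgdh in the hypoxic cluster was 111 CPM in each library, below the median cluster at 150 and 165 CPM.

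Phgdh and Psat1 peaked elsewhere. In sGC Ctr Psat1 was highest, at 84.3 CPM, in a cluster led by histone genes, and in sGC ∆PC, at 89.9 CPM, in one led by Mki67. Phgdh was highest, at 236 CPM, in 125 sGC Ctr cells led by Cxcl3, with Asns at 78.6 CPM. In sGC ∆PC it was highest, at 258 CPM, in 673 cells led by histone genes. A cluster of 643 sGC Ctr cells led by Ptn, with Aspn and Islr, was lowest for Psat1 (7.66 CPM), Phgdh (62.6 CPM) and Asns (18.7 CPM), while its Ddit3 was 19.8 CPM, above the median cluster at 10.4 CPM. The lowest Atf4, 44.1 CPM in the same 125 cells of sGC Ctr and 28.8 CPM in 51 cells of sGC ∆PC, came with the lowest Hspa5, 183 and 184 CPM.

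Across clusters Atf4 varied 5.61-fold in sGC Ctr and 10.5-fold in sGC ∆PC, Hspa5 2.74-fold in both, and the sum 1.70-fold and 2.13-fold. Over the same clusters, the genes whose log2 level was most like that of the sum, among 4992 genes, were Cdv3, Wdr43, Mphosph10, Naa50, Nmd3, Ptpn2, Nol10, Ado, Rnps1 and Ltbp1, with the lower of the 2 Pearson correlations from 0.86 to 0.91. The clusters of a library share its free RNA but differ in depth, with medians from 2898 to 74593 UMIs in sGC Ctr and from 3427 to 79291.5 in sGC ∆PC. These values thus only describe the clusters, and the part of depth in them was not tested.

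Whether the genes sat in the same cancer cells was read from the cells that held a Ddit3 UMI after thinning to 10000 UMIs, 786 of 7042 (11.2%) in sGC Ctr and 875 of 7408 (11.8%) in sGC ∆PC. The thinning left out 180 and 3808 shallower cells. Trib3 was at 8.91 CPM with and 3.71 CPM without Ddit3 in sGC Ctr and at 6.74 and 4.85 CPM in sGC ∆PC (log2 1.26, 0.86 to 1.66, and 0.47, 0.05 to 0.88). Gdf15 was at 2.67 and 0.767 CPM and at 2.29 and 1.09 CPM (1.80, 0.99 to 2.57, and 1.07, 0.28 to 1.81), from 21 and 20 UMIs in the Ddit3-positive cells. Atf4 was at 178 and 129 CPM and at 204 and 159 CPM (0.47 and 0.36), and Sesn2 differed by 0.31 and 0.30.

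The metabolic genes did not follow Ddit3. Asns differed by 0.03 and 0.09 and Psat1 by 0.01 and 0.06, with intervals that include 0, and Phgdh was lower in Ddit3-positive cells, at 110 against 139 CPM and 146 against 162 CPM (-0.35 and -0.15). The sum of the other 9 genes differed by 0.09 (0.05 to 0.12) and 0.13 (0.09 to 0.16). In the Ddit3-positive cells Hspa5 gave 3440 of the 6655 UMIs of this sum in sGC Ctr and 4018 of 8334 in sGC ∆PC. Hspa5 itself differed by 0.06 (0.01 to 0.11) and 0.13 (0.08 to 0.17). The scarce Chac1 differed by 1.31 and 1.25, with intervals that include 0. The hypoxia list was also higher in the Ddit3-positive cells, by 0.17 and 0.15, and its part in these differences was not tested.

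In macrophages, 17.5% and 17.8% of thinned cells held Ddit3. There Gdf15 was at 17.5 against 8.43 CPM in sGC Ctr and 25.6 against 7.03 CPM in sGC ∆PC (1.05, 0.44 to 1.63, and 1.87, 1.24 to 2.49), and Atf4 differed by 0.36 and 0.31. These were the only genes of the 9 whose intervals, for counting error only, lay away from 0 in both libraries. Gdf15 had 36 and 41 UMIs in the Ddit3-positive cells. Only 13 and 15 macrophages held both genes, where 9.09 and 7.11 would if the 2 were independent. With a variance of 4.21 and 3.78 times its mean, Gdf15 has intervals here that are too narrow for the spread between cells.

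**Figure D4:**
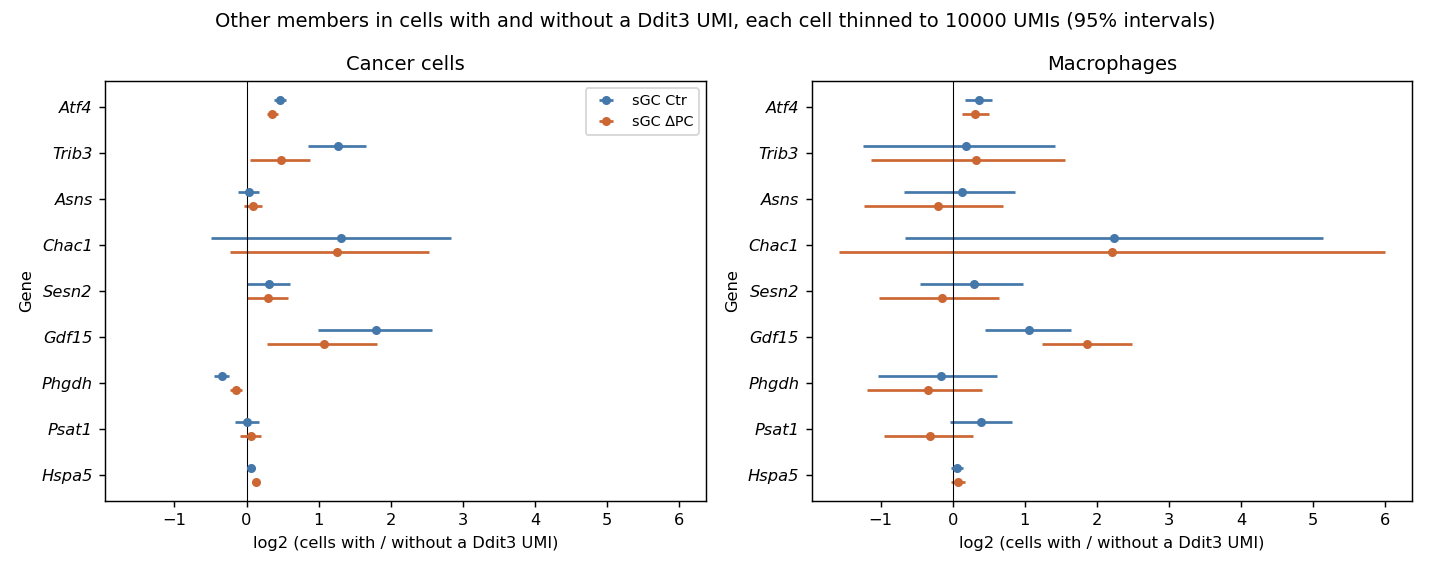
Log2 ratio (x axis) of cells with over cells without a Ddit3 UMI for the other 9 genes (y axis), in cancer cells (left) and macrophages (right), each cell thinned to 10000 UMIs, with 95% intervals for counting error. Gdf15 and Atf4 lie to the right of 0 in both classes and libraries, and Phgdh lies to the left in cancer cells.

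In macrophages Gdf15 was concentrated in 1 of 10 clusters of sGC Ctr and 1 of 9 of sGC ∆PC. A cluster of 156 sGC Ctr cells led by Mmp12, with Ndrg1 and Hilpda among its 10 leading genes, had Gdf15 at 94.0 CPM, Atf4 at 281 CPM and Ddit3 at 73.3 CPM. In sGC ∆PC a cluster of 176 cells led by Hspb1, with Mmp12, Adm and Mt2, had 74.1, 259 and 49.2 CPM. Every other macrophage cluster had at most 13.1 CPM of Gdf15. Each of these clusters had the highest hypoxia list of its library, 5014 and 4564 CPM. Gdf15 was left out of the clustering but is itself among the leading genes of both, so its level there is a description. Hspa5 ran differently, and was highest in sGC Ctr at 929 CPM in a cluster led by Cd163 and in sGC ∆PC at 804 CPM in one led by Ccl8.

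Between the libraries, the cancer cells differed little. In the sGC ∆PC library 0 of the 10 genes differed by 2-fold or more from sGC Ctr, where 3.82% of 15196 genes did, and the median log2 ratio of the 10 was 0.13 against 0.01 over all genes. Atf4 differed most, at 166 against 138 CPM (log2 0.27, 0.26 to 0.29), followed by Gdf15 (0.25, 0.06 to 0.45) and Psat1 (0.24, 0.21 to 0.27). Asns (0.16), Trib3 (0.14), Phgdh (0.12), Ddit3 (0.09) and Hspa5 (0.06) were also higher in sGC ∆PC, and the intervals of Sesn2 (0.05) and Chac1 (0.01) included 0. The sum differed by 0.13 (0.12 to 0.13).

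Cell makeup and depth moved with this difference. Cancer cells of sGC ∆PC carried the macrophage markers at 1.28% of the macrophage level against 0.542% in sGC Ctr, and had a median of 15524.5 against 50775 UMIs. Clusters with more markers of another class than of cancer cells among their 10 leading genes held 24.1% of sGC Ctr and 15.8% of sGC ∆PC cancer cells, led by fibroblast (Lum, Dcn) or granulocyte genes in the first and by macrophage, fibroblast or granulocyte genes in the second. A further sGC ∆PC cluster of 1535 cells led by Cd74 was not among them, since none of its 10 leading genes is a marker of any class. A Cd74-led cluster of 355 sGC Ctr cells was left out. The fibroblast-led clusters of sGC Ctr (815 and 568 cells) had its highest Igfbp6, Clu and Scara5 list, and Psat1 at 24.2 and 21.8 CPM. A sGC ∆PC cluster of 1947 cells with that list at 402 CPM and Psat1 at 33.5 CPM was kept. The removal was thus unlike in the 2 libraries. Without the left-out clusters Atf4 still differed by 0.24 and Gdf15 by 0.25, but Psat1 by 0.06, Asns by 0.02, Trib3 by 0.01, Phgdh by -0.05 and the scarce Chac1 by -0.31. Their part in the full difference cannot be told apart from the genotype.

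The differences also varied with depth. Among cells of 40000 to 80000 UMIs, 4024 and 2314 in the libraries, Atf4 was at 136 and 163 CPM but Asns at 56.4 and 58.3 CPM and Phgdh at 146 and 147 CPM. Among those of 20000 to 40000 UMIs, 1727 and 1680, Atf4 was at 129 and 166 CPM, Asns at 40.9 and 62.0 CPM, Phgdh at 92.6 and 148 CPM and Psat1 at 22.2 and 47.9 CPM. Among those of 10000 to 20000 UMIs, 197 and 2608, Atf4 was at 134 and 167 CPM. Among those of 2000 to 10000 UMIs, 180 and 3808, it was at 178 and 183 CPM, so that it was nearly level in the shallowest cells. The 180 sGC Ctr cells had a mean of 4983 UMIs, so counting error was largest in this range.

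Ddit3 was lower in sGC ∆PC in the 3 shallower ranges, at 15.0 against 40.1 CPM, 13.3 against 19.9 CPM and 14.7 against 16.9 CPM from the shallowest up, and stood at 12.4 against 11.2 CPM in the deepest. Past 2-fold were Ddit3, lower, in the shallowest range, where 26.3% of all genes passed it, Gdf15, higher, at 10000 to 20000 UMIs (6.89%), and Psat1, higher, at 20000 to 40000 UMIs (5.71%). At 40000 to 80000 UMIs none of the 10 did (1.24%). The Gdf15 levels behind this were 1.72 CPM in sGC ∆PC and 0.652 CPM in sGC Ctr. The sGC Ctr level came from very few UMIs in 197 cells.

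The same difference was smaller in the more hypoxic quintiles, which were cut within each library and did not match in hypoxia level. From the least to the most hypoxic quintile, the median log2 ratio of the genes tested was 0.43, 0.29, 0.17, 0.11 and 0.08. In the first group 6 of 9 genes were higher and in the last 8 of 10, where 48.9% and 56.2% of all genes were. In the most hypoxic quintile Atf4 was at 183 CPM in sGC Ctr and 204 CPM in sGC ∆PC and Trib3 at 8.75 and 8.05 CPM. In the least hypoxic quintile Psat1 was at 25.5 and 43.6 CPM. The hypoxia list there stood at 910 CPM in sGC Ctr and 1131 CPM in sGC ∆PC, and median depth was 39500 and 13976.5 UMIs. In the most hypoxic quintile the list stood at 3955 and 3895 CPM. The part of hypoxia level and depth in this trend was not tested.

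Over all genes tested, 52.2% were higher in sGC ∆PC cancer cells and 3.82% were past 2-fold either way. Of the pathway lists, 16 of 20 genes of amino acid transport and synthesis were higher, with a median of 0.14. Slc7a11 was the only one past 2-fold, at 3.69 against 1.61 CPM (1.19, 1.05 to 1.33). Slc7a11 was also higher in sGC ∆PC macrophages, at 39.9 against 23.1 CPM, both far above the levels in cancer cells. Lowest on this list in cancer cells was Cbs, of transsulfuration, at 0.172 against 0.203 CPM, with an interval that includes 0. The synthetases (16 of 20 higher, median 0.03), chaperones (11 of 20, 0.01) and regulators (8 of 17, -0.01) had medians near that of all genes. Among regulators Cebpb, a partner of ATF4, was at 150 against 118 CPM and Eif2ak4, the kinase GCN2, at 10.4 against 11.3 CPM. Of 8 stress targets 6 were higher, with Hmox1 at 24.3 against 16.3 CPM and Txnip at 32.4 against 44.5 CPM.

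In macrophages, 0 of 9 genes tested differed by 2-fold, where 0.909% of 11555 genes did, and the sum differed by -0.01 (-0.04 to 0.01). Atf4 was at 168 CPM in sGC ∆PC against 135 CPM in sGC Ctr (0.31, 0.24 to 0.38), much as in cancer cells. Phgdh was at 15.2 against 9.84 CPM (0.63, 0.37 to 0.88) and Sesn2 at 12.0 against 9.67 CPM (0.31, 0.04 to 0.58). Hspa5 was lower, at 619 against 669 CPM (-0.11, -0.15 to -0.08). With a variance of 4.30 and 3.52 times its mean, Hspa5 has an interval here that is too narrow for the spread between cells. Clusters led by markers of another class held 18.9% of sGC ∆PC macrophages and none of sGC Ctr. They were 155 cells led by Ptn, with the fibroblast marker Dcn, and 161 led by Ccl8 and Lyve1, with the endothelial marker Ctla2a. The sGC Ctr cluster led by Cd163, with Ccl8 and Lyve1, was kept, so the removal was unlike in the 2 libraries. Without the removed clusters Atf4 differed by 0.39, Phgdh by 0.44 and Hspa5 by -0.16. The removed Ccl8 cluster had the highest Hspa5 of the sGC ∆PC macrophage clusters, 804 CPM.

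**Figure D5:**
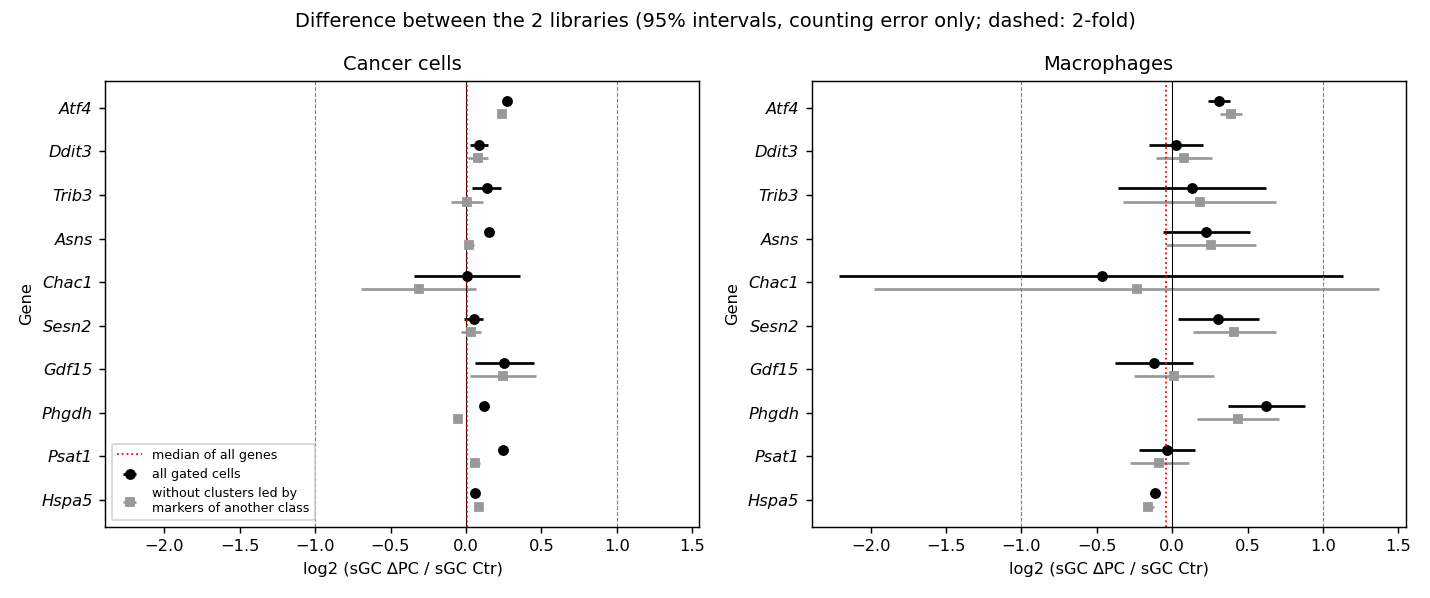
Log2 ratio of sGC ∆PC over sGC Ctr (x axis) for each gene (y axis) in cancer cells (left) and macrophages (right), with 95% intervals for counting error, for all gated cells (black) and without clusters led by markers of another class (grey). No gene reaches the dashed 2-fold lines, and Atf4 lies to the right of 0 in both classes with and without those clusters.

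In the smaller classes the counts allowed few comparisons. No gene with at least 50 UMIs differed by 2-fold or more between the libraries in endothelial cells (3 tested), fibroblasts (6) or granulocytes (3), where 1.68%, 3.46% and 4.19% of all genes did. In granulocytes, Ddit3 was at 337 CPM in sGC Ctr and 214 CPM in sGC ∆PC, from 57 and 46 UMIs, and the intervals overlapped.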

How the data were processed

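Per the submitters' processing notes, the authors aligned the 10x reads to mm10 and counted UMIs with Cell Ranger 6.1.1. The deposited matrices hold raw counts of UMIs per gene and barcode, 1 matrix per genotype. Barcodes within 3 median absolute deviations, under 10% mitochondrial UMIs and with at least 2000 UMIs were kept. Cells were classed by marker sums per 10000 UMIs. A cell had to reach the limit of its class (5 for cancer cells, 20 for macrophages). It also had to stay under a lower limit for each other class (2.5 and 10 for these). Cells that reached any limit without meeting both conditions were set aside as mixed, and no doublet caller was run. UMIs were summed per class and scaled to CPM with exact Poisson intervals, and log2 ratios carry exact conditional binomial intervals at 95%. A ratio over all genes needed 50 UMIs over both groups, with 0.5 added to each count, and a change counted from 2-fold. A share of 0 was bounded by 3 counts. With 1 library per genotype no test was made, and PCR or capture error is not covered.

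Cancer cells and macrophages were clustered per library without the 10 genes (scanpy 1.11.5, leidenalg 0.10.2, 20 components, 15 neighbors, resolution 1). The other tools were Python 3.11.15, numpy 2.4.6, scipy 1.17.1 and pandas 2.3.3. The ratio code was tested on simulated data. The genes, the marker, state and pathway lists and the comparisons were chosen with earlier results of these data known. The text names all 10 genes and the 10 genes most like the sum. For the amino acid, regulator and stress target lists it names the genes with the largest difference each way between the libraries in cancer cells. Of the chaperones only Xbp1 is named, and of the synthetases none. Alternatives were the cell filter, scaling, cell weighting, thinning, marker limits, clusters in place of limits, deep cells left out, the UMI minimum and the pseudocount.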

Additional observations from a re-analysis of the deposited data

Results flagged for a closer look

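Hspa5 differed between the libraries in opposite directions in the main cell classes. It was higher in sGC ∆PC by 0.060 on the log2 scale in cancer cells and lower there in macrophages (-0.11), each from 1 library per genotype. The difference between the classes was not tested. In macrophages thinned to 10000 UMIs the variance of Hspa5 was 4.30 and 3.52 times its mean. Its counting intervals there are thus too narrow for the spread between cells. In cancer cells the direction changed with depth, with -0.08 among cells of 20000 to 40000 UMIs.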

How the results depend on the processing

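Values are log2 ratios of the sum of the 10 genes. Cancer cells over macrophages (-0.11 in sGC Ctr, 0.03 in sGC ∆PC) changed with scaling: 0.34 and 0.45 without mitochondrial, ribosomal protein and hemoglobin genes, -0.013 in sGC ∆PC relative to the median gene. It was -0.14 and -0.045 with clusters in place of marker limits, and in sGC ∆PC 0.057 after thinning to 2000 UMIs and 0.059 with stricter limits. The hypoxia difference (0.32 and 0.24) stayed positive in every alternative run: 0.34 in sGC Ctr without the same genes, 0.53 and 0.41 relative to the median gene, 0.34 in sGC Ctr with equal weight per cell, 0.24 and 0.19 after thinning, 0.19 in sGC ∆PC with stricter limits and 0.26 there without the deepest cells. Between libraries, cancer cells (0.13) gave 0.10 without those genes, 0.12 relative to the median, 0.15 with equal weight, 0.15 thinned, 0.11 with stricter limits, 0.12 by clusters and 0.10 without the deepest cells. Macrophages (-0.01) gave 0.025 relative to the median, -0.056 with stricter limits and 0.018 by clusters, and with stricter limits alone the interval (-0.095 to -0.016) lay below 0. Hspa5, uneven between macrophages, gave 74.8% and 69.9% of their sum with the main limits, and this interval covers counting error only. Ddit3-positive cancer cells of sGC Ctr (0.09) gave 0.20 thinned to 2000 UMIs, 0.15 with stricter limits and 0.16 without the deepest cells, but 0.052 relative to the median gene. In sGC ∆PC (0.13) thinning gave 0.095 with an interval (-0.024 to 0.21) that includes 0.

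Chosen after seeing the data, leaving out clusters led by markers of another class gave -0.068 for cancer cells over macrophages and 0.38 for hypoxia in sGC Ctr, and 0.081 between libraries, and the 4 depth ranges gave 0.18 (2000 to 10000 UMIs), 0.28 (10000 to 20000), 0.20 (20000 to 40000) and 0.088 (40000 to 80000) between libraries. The cause of these shifts was not tested. The count of genes past 2-fold between libraries in cancer cells was 0 in the other alternatives run, but 1 in each of the 3 shallower depth ranges. At 10000 to 20000 UMIs this gene was Gdf15, with very few UMIs in sGC Ctr. No paired analysis was possible because each genotype was 1 library. Low counts limited Chac1 and all small classes.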

Other observations

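Barcodes outside the classes also carried the 10 genes. Those that passed the quality limits but held under 2000 UMIs numbered 547 for sGC Ctr and 3928 for sGC ∆PC, with Ddit3 at 120 and 39.2 CPM, Sesn2 at 70.6 and 16.9 CPM and Atf4 at 356 and 246 CPM. Their granulocyte marker sum was higher in sGC Ctr as well, and its part in these levels was not tested. Barcodes with 10% or more mitochondrial UMIs, 1841 and 3133, had Ddit3 at 18.2 and 16.9 CPM and Phgdh at 56.7 and 103 CPM.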
